A study of Saccharomyces cerevisiae with 72 samples.

Results

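The genes described here are the DNA replication and nucleotide supply genes of *Saccharomyces cerevisiae*: the origin recognition and *MCM* genes, the GINS and other firing factors, the replicative DNA polymerases, the sliding clamp with its loader, the single-strand binding protein RPA, the fork protection genes, and the genes of ribonucleotide reductase with *DUT1* and *CDC21*. They were chosen by function from a list of 56 systematic names. Of these, 55 had a log2 fold change in every condition, out of 6496 genes that did, and 1 was not analysed here. Transcripts were measured by RNA-seq of polyadenylated RNA in S288c diploids at 0, 2, 4, 6, 8 and 12 h after transfer to potassium acetate medium, in *kar4*Δ/Δ and its wild type, with 2 replicates of each of 36 conditions. With endogenous promoters, *IME1* and *RIM4* kept their own promoters. Pzev-*IME1* strains carried *IME1* under a promoter that the β-estradiol-activated factor Z3EV drives, and dual strains carried Pzev-*IME1* and Pzev-*RIM4* together. Per the study's methods, cultures for overexpression received β-estradiol once they were in the acetate medium. The study also lists a wild type and a *kar4*Δ/Δ diploid with heterozygous Z3EV and no Pzev promoter. In the strains listed by the study the Pzev constructs are heterozygous. Among those without an epitope tag, the act1pr-Z3EV construct is homozygous in the dual strains and heterozygous with Pzev-*IME1* alone. Promoter and activator dose thus cannot be told apart. The deleted *KAR4* copies are replaced by selection markers that wild type lacks. The listed strains without an epitope tag differ in auxotrophic markers too. There *his3* is homozygous without a Pzev promoter and heterozygous with Pzev-*IME1* alone. With Pzev-*IME1* alone, wild type is listed as *lys2*/+ and *kar4*Δ/Δ as *met15*/+.

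Each value is the authors' log2 fold change, with wild type cells under endogenous promoters at 0 h as the reference, written below as a log2 value, with the replicates already combined. No spread between replicates, count or depth could be computed from these values, so no test was made. Sizes are described in place of a test: a member was counted when it was at least 2-fold higher or lower, and the counts of a comparison stand beside the percentage of all 6496 genes past the same size. Counts under another scaling, and times of the highest value, are given for the members alone. Whether those times are particular to the members cannot be told from them. Differences between strains are differences of log2 values. In bulk RNA, fewer cells in S phase and less of a transcript per cell cannot be told apart.

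Ime1p switches on the early meiotic genes, after which the cells copy their DNA once in premeiotic S phase before recombination. The origin recognition complex and Cdc6p load the Mcm2-7 helicase, the firing factors activate it, and polymerases with the clamp copy the strands. Ribonucleotide reductase makes the deoxynucleotides. In dividing yeast many of these genes are transcribed at the G1/S boundary through the factor MBF, which binds the MCB sequence ACGCGT.

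The labels were checked first. *KAR4* lay between -8.33 and -3.96 in the *kar4*Δ/Δ columns, except the column labelled *kar4*Δ/Δ with endogenous promoters at 0 h, where it was at -0.55, so a genotype difference at 0 h in that background is not drawn. *IME1* reached 4.01 with Pzev-*IME1* in wild type and *RIM4* reached 4.61 in the dual wild type. *RIM4* was also raised without Pzev-*RIM4*, at 2.63 at 2 h and 3.72 at 12 h in wild type Pzev-*IME1*. The *RIM4* level thus parts these 2 wild type labels only weakly, and at 12 h it was 3.35 in the dual wild type. In *kar4*Δ/Δ at 12 h *RIM4* was at 1.74 with Pzev-*IME1* and at 4.48 in the dual strain. The wild type dual column at 0 h stood apart from the other Pzev columns at 0 h. In it *IME1* was at 3.03 and the early meiotic kinase gene *IME2* at 4.36. In wild type Pzev-*IME1*, *kar4*Δ/Δ Pzev-*IME1* and the *kar4*Δ/Δ dual strain, *IME2* was at -0.47, 0.29 and -0.04 at 0 h. *IME1* was already above the reference in these 0 h columns too, at 1.94, 1.52 and 1.41. The median of all genes was between -0.03 and 0.02 in every column, and the SD over all genes was between 0.51 and 0.72 with endogenous promoters from 2 to 12 h but grew from 1.22 to 2.11 in the dual wild type.

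**Figure D1:**
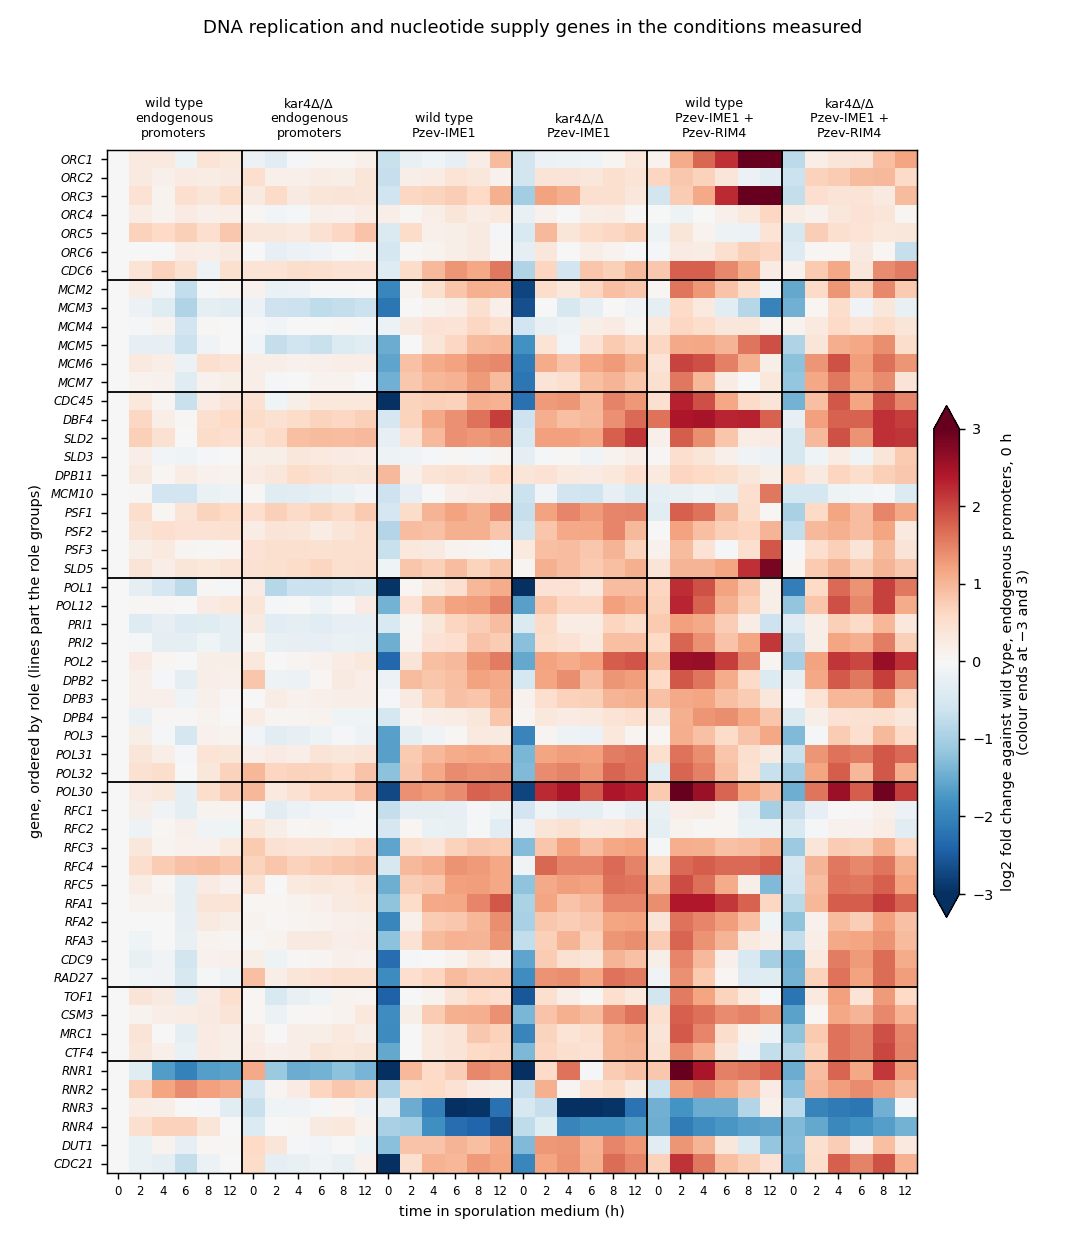
Log2 fold change of the 55 genes (rows, parted by role), relative to the 0 h wild type column under endogenous promoters, in 6 strains over time in sporulation medium (columns, h). Most rows are pale with endogenous promoters, blue at 0 h in 3 of the 4 Pzev strains and red afterwards, while *RNR3* and *RNR4* turn blue and *ORC1* and *ORC3* end above 3 in the dual wild type.

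With endogenous promoters the replication genes hardly moved. In the mean of 2, 4 and 6 h in wild type their median was 0.06, and 1 of 55 was at least 2-fold higher (3.93% of all genes) and 1 at least 2-fold lower (2.22%). The highest were *RNR2* at 1.10, *RFC4* at 0.72, *ORC5* at 0.66, *RNR4* at 0.62 and *CDC6* at 0.52. The lowest were *RNR1* at -1.36, *POL1* at -0.52, *MCM3* at -0.48, *CDC21* at -0.40 and *MCM5* at -0.37. At 12 h the median was 0.18, and again 1 member was past 2-fold in each direction, against 6.33% of all genes higher and 3.96% lower. *RNR2* (1.14), *RFC4* (0.84), *ORC5* (0.81), *POL30* (0.73) and *POL32* (0.70) stood highest, and *RNR1* (-1.60), *RNR3* (-0.35), *MCM3* (-0.34), *PRI2* (-0.28) and *PRI1* (-0.27) lowest. Both ends were thus held by genes of the same enzyme, since *RNR1* and *RNR2* encode its large and small subunit. Early meiotic genes were moderately raised in the same columns, with *IME2* at 2.37 and the axis gene *HOP1* at 2.62 at 12 h.

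With Pzev-*IME1* the genes started low and ended high. At 0 h their median was -1.20 in wild type, 28 of 55 were at least 2-fold lower (16.7% of all genes) and 0 higher (6%). Lowest were *CDC21*, the thymidylate synthase gene, at -3.18, *RNR1* at -3.03, the helicase activator gene *CDC45* at -2.95, the polymerase α gene *POL1* at -2.95 and the clamp gene *POL30* at -2.70. *DPB11* (0.98) and *ORC4* (0.19) were the only members above 0, followed by *DPB3* (-0.06), *SLD5* (-0.13) and *SLD3* (-0.16). Under quantile normalization of the columns 18 members were lower and 1 higher. The *kar4*Δ/Δ strain with Pzev-*IME1* started low as well: at 0 h 26 members were lower (13.7%) and 0 higher (2.91%), with a median of -0.95. There *RNR1* (-4.46), *POL1* (-3.64), *POL30* (-2.76), *MCM2* (-2.75) and *MCM3* (-2.64) stood lowest, and *DPB11* (0.36), *PSF3* (0.29), *DPB3* (0.12), *DPB4* (0.08) and *SLD5* (0.07) highest. What sets these cultures apart from the reference at 0 h was not tested.

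By 2 h the low values were mostly gone. From 0 to 2 h, 36 of 55 members were at least 2-fold higher within wild type Pzev-*IME1* (23.6% of all genes), with *POL30* up by 4.08, *RNR1* by 4.01, *CDC21* by 3.66, *CDC45* by 3.63 and *POL1* by 3.0. The *kar4*Δ/Δ strain had 39 (23.4%), with *RNR1* up by 5.03 and *POL30* by 5.0. Against the 0 h reference, the 2 to 6 h mean in wild type had a median of 0.53, with 5 members higher (8.21%) and 2 lower (4.97%). Highest were *POL30* (1.36), *RFC4* (1.14), *POL32* (1.12), *MCM6* (1.06) and *DBF4* (1.06). *RNR3* (-2.20) and *RNR4* (-1.73) were far below the next lowest, *RFC1* (-0.27), *ORC1* (-0.20) and *RFC2* (-0.12). The count higher was 15 over 4 and 6 h alone and 8 under quantile normalization, so many members lay near the 2-fold size.

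That course went on to the last time point. At 12 h in wild type Pzev-*IME1* the median was 0.95, which is 1.93-fold, and 26 members, or 47.3%, were higher (14.4% of all genes), 14 under quantile normalization, while 2 were lower (10.3%). *DBF4*, needed for origin firing, stood at 2.07, the RPA gene *RFA1* at 1.86, *POL30* at 1.70, the helicase loader gene *CDC6* at 1.58 and the polymerase ε gene *POL2* at 1.55. *RNR4* (-2.65), *RNR3* (-2.23), *RFC2* (-0.34), *RFC1* (-0.14) and *PSF3* (-0.07) were lowest. Of the 55 members, 23 had their highest value from 2 h on at 12 h and 19 at 8 h, with no count over all genes. Set against endogenous promoters, wild type Pzev-*IME1* differed by a median of 0.54 over 2 to 6 h, with 4 members higher (5.13%) and 2 lower (4.13%). *RNR1* (2.12), *POL30* (1.26), *CDC21* (1.24), *DUT1* (1.02) and *MCM7* (0.98) led, and *RNR4* (-2.35), *RNR3* (-2.34), *RNR2* (-0.58), *ORC5* (-0.37) and *ORC1* (-0.35) trailed. Here too the count higher moved, to 16 over 4 and 6 h and to 10 under quantile normalization. At 12 h it was 17 members (10.8%) but 2 under quantile normalization, and 2 were lower (8.37%) but 4 under quantile normalization. The largest differences at 12 h were *RNR1* (2.94), *DBF4* (1.47), *RFA1* (1.45), *POL2* (1.37) and *RFA3* (1.23) on the high side and *RNR4* (-2.66), *RNR3* (-1.88), *RNR2* (-0.95), *ORC5* (-0.85) and *RFC1* (-0.26) on the low side.

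*kar4*Δ/Δ gave a like picture for the same promoter difference. Over 2 to 6 h the median of Pzev-*IME1* minus endogenous was 0.54 in *kar4*Δ/Δ, with 8 members higher (6.83%) and 2 lower (6.65%). Highest were *RNR1* (2.05), *POL30* (1.72), *CDC21* (1.41), *DPB2* (1.26) and *DUT1* (1.15), and lowest *RNR3* (-2.51), *RNR4* (-1.49), *SLD3* (-0.30), *CDC6* (-0.17) and *DPB11* (-0.12). At 12 h 16 members were higher (7.47%), 7 under quantile normalization, and 2 lower (5.34%). The ends were *RNR1* (2.29), *POL2* (1.58), *DUT1* (1.44), *POL30* (1.42) and *POL1* (1.41), and *RNR3* (-2.11), *RNR4* (-1.79), *RNR2* (-0.45), *MCM10* (-0.35) and *RFC1* (-0.26). The 2 lower members were *RNR3* and *RNR4* in both genotypes and both windows.

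**Figure D2:**
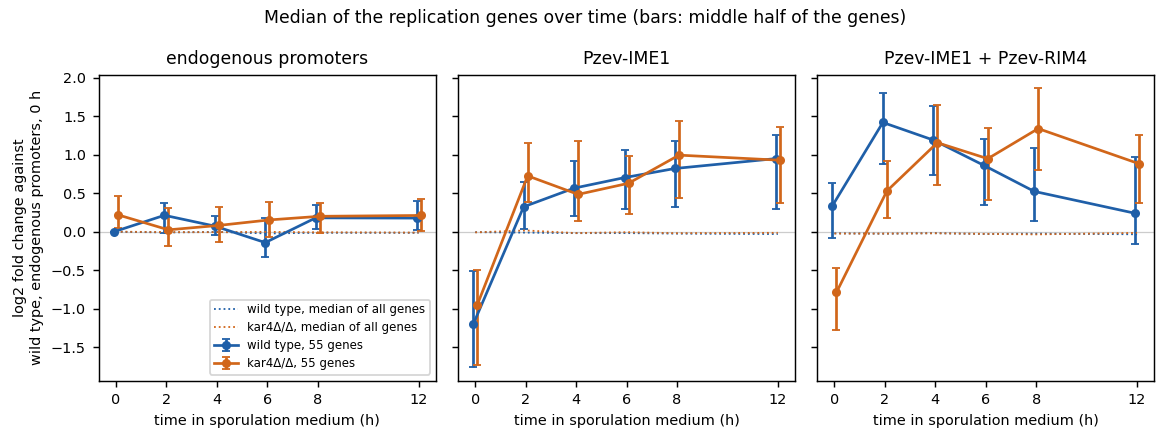
Median log2 fold change of the 55 genes against time in sporulation medium (h) in wild type (blue) and *kar4*Δ/Δ (orange), one panel per promoter background; bars span the lower to the upper quartile of the genes and dotted lines give the median of all genes. The medians stay near 0 with endogenous promoters, climb from -1.20 and -0.95 to 0.95 and 0.93 with Pzev-*IME1*, and in the dual strains peak at 1.42 at 2 h in wild type and at 1.34 at 8 h in *kar4*Δ/Δ.

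The highest and earliest levels were in the wild type dual strain. Its 0 h column did not show the low start: the median was 0.34, with 2 members higher (3.79%), 13 under quantile normalization, and 2 lower (6.77%). *DBF4* (1.62), *RFA1* (1.40), *POL2* (0.95), *RFC5* (0.94) and *DPB3* (0.88) were highest at 0 h, and *RNR4* (-1.46), *RNR3* (-1.44), *RNR2* (-0.64), *TOF1* (-0.55) and *ORC3* (-0.55) lowest. From 0 to 2 h a further 31 members were at least 2-fold higher (11.7%), 12 under quantile normalization, led by *POL30* (2.60), *RNR1* (2.40), *TOF1* (2.11), *PSF1* (2.09) and *POL32* (2.05). At 2 h, 40 of 55 members were at least 2-fold above the reference (15.1% of all genes), a count not repeated under another scaling. For 34 of 55 the highest value from 2 h on was at that time, counted for the members alone. In the 2 to 6 h mean 34 members, or 61.8%, were higher (16.9% of all genes), 17 under quantile normalization, and 2 lower (14.9%), with a median of 1.26 or 2.39-fold. *POL30* stood at 2.57, *POL2* at 2.43, *DBF4* at 2.39, *RNR1* at 2.39 and *RFA1* at 2.31, whereas *RNR4* (-1.91), *RNR3* (-1.59), *MCM10* (-0.20), *ORC4* (-0.01) and *RFC2* (0.07) were lowest.

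After this early high most members came down again in the dual wild type, and a few went up. From 2 to 12 h, 30 members, or 54.5%, were at least 2-fold lower (20.2% of all genes) and 5 higher (23.8%), 2 under quantile normalization. Lower were *RFC5*, a clamp loader gene, by 3.27 and *MCM3* by 2.59 on the log2 scale, then *POL2* (-2.51), *DUT1* (-2.50) and the DNA ligase gene *CDC9* (-2.47). The 5 that were higher were *ORC3* (3.82), *ORC1* (2.56), *RNR3* (1.95), *SLD5* (1.82) and *MCM10* (1.80). At 12 h the median against the reference was 0.24, with 14 members higher (27.8%) and 6 lower (23.9%), so members were no more often higher there than all genes. The 14 and 6 became 3 and 1 under quantile normalization. *ORC3* stood at 4.58, *ORC1* at 3.67, the GINS gene *SLD5* at 2.84, the primase gene *PRI2* at 2.12 and *MCM5* at 1.93. *MCM3* (-2.01), *RNR4* (-1.58), *RFC5* (-1.33), *DUT1* (-1.17) and *RFC1* (-1.01) were lowest. Subunits of one complex thus ended on opposite sides, as *MCM5* and *MCM3* did.

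The neighbours of these late-high genes were looked up after these values were seen. Reads of overlapping transcripts cannot be assigned without strand, but the gaps below are between annotated genes, and overlap of transcripts was not examined. *ORC3* (chromosome XII, 141073 to 142923, R64) has the sporulation gene *SPO75* (YLL005C) on its left, transcribed away from it across a gap of 526 bases. In the dual wild type *SPO75* was at -0.21 at 2 h, 1.52 at 6 h and 3.19 at 12 h. *ORC1* (chromosome XIII, 142210 to 144954) has *SMA2* (YML066C), a gene of spore membrane assembly, on its left across 676 bases, also divergent, and *SMA2* went from 0.12 at 2 h to 5.32 at 12 h. Left of *SLD5*, the divergent *PAC11* (YDR488C) was at 2.39 and then 3.73. Right of *SLD5*, *PKH1* is transcribed towards it across 71 bases and went from -0.39 at 2 h to 0.78 at 12 h. It was at -0.38 at 12 h in the dual *kar4*Δ/Δ. Beside *MCM10*, *ESL1* went from -0.32 to 1.01 and *MLP2* from -0.31 to 0.06 in the dual wild type. Left of *RNR3*, YIL067C went from 0.44 to 1.95 there. In the *kar4*Δ/Δ dual strain *SPO75* was at -0.24 and *SMA2* at 0.64 at 12 h, where *ORC3* was at 0.96 and *ORC1* at 1.19. The right-hand neighbours did not follow *ORC3* and *ORC1*, with *SFI1* at -0.19 and *TEM1* at 0.51 in the dual wild type at 12 h. The part that neighbouring transcription has in these values was not tested.

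Set against wild type Pzev-*IME1*, the dual wild type was higher early and mostly lower late. Over 2 to 6 h the median difference was 0.62, with 10 members higher (10.4%), 2 under quantile normalization, and 0 lower (11.6%). *ORC1* (1.87), *POL2* (1.68), *RNR1* (1.63), *POL1* (1.50) and *RFA1* (1.36) differed most, and *ORC4* (-0.21), *ORC5* (-0.19), *MCM10* (-0.18), *RNR4* (-0.18) and *PSF2* (-0.02) were at the other end. By 12 h the *RIM4* and *IME1* transcripts were themselves lower in the dual wild type, at 3.35 and 1.93 against 3.72 and 4.01. The difference at 12 h is therefore not one of more *RIM4* transcript. At that time 19 members were lower (20.3%), 12 under quantile normalization, and 8 higher (24%), 2 under quantile normalization, with a median of -0.64. The high end was *ORC3* (3.51), *ORC1* (2.72), *RNR3* (2.38), *SLD5* (2.01) and *PSF3* (1.92), and the low end *RFC5* (-2.48), *DUT1* (-2.31), *MCM3* (-2.17), *POL32* (-2.04) and *PRI1* (-1.56). The same difference was small in *kar4*Δ/Δ: over 2 to 6 h 0 members were higher (2.86%) and 0 lower (4.83%), with a median of 0.18. Over 4 and 6 h alone 6 were higher. *POL1* (0.83), *MRC1* (0.78), *CTF4* (0.75), *MCM7* (0.72) and *RNR2* (0.71) were highest and *DUT1* (-0.75), *ORC3* (-0.48), *PSF1* (-0.42), *RFC3* (-0.37) and *RNR4* (-0.36) lowest. At 12 h 1 was higher (6.23%) and 1 lower (9.13%), 0 under quantile normalization. These were *RNR3* (2.15) and *DUT1* (-1.02). Between them lay *ORC1* (0.87), *RNR2* (0.68), *POL1* (0.66) and *ORC3* (0.62) above, and *RFC2* (-0.75), *ORC6* (-0.68), *PSF2* (-0.66) and *CSM3* (-0.58) below.

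In the 2 backgrounds without Pzev-*RIM4* the genotypes were within 2-fold of each other for all members in both windows. With endogenous promoters 0 of 55 members were higher (0.724%) and 0 lower (1.12%) over 2 to 6 h, and the median difference of *kar4*Δ/Δ minus wild type was 0.06. The flap nuclease gene *RAD27* (0.56), *SLD2* (0.42), *POL30* (0.36), *POL32* (0.34) and *RFA3* (0.32) were highest and *RNR2* (-0.77), *RNR4* (-0.53), *TOF1* (-0.39), *ORC5* (-0.30) and *MCM5* (-0.29) lowest. At 12 h again 0 were higher (1.09%) and 0 lower (1.69%), between *RAD27* (0.64), *SLD2* (0.47), *PSF3* (0.42), *RFC3* (0.33) and *DPB11* (0.30) and, below, *POL1* (-0.46), *TOF1* (-0.43), *RNR2* (-0.42), *MCM5* (-0.30) and *MCM3* (-0.29). So few genes of any kind differed by this size that a count of 0 among 55 says little.

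With Pzev-*IME1* the counts were the same. Over 2 to 6 h 0 members were higher (1.39%) and 0 lower (3.56%), with a median of 0.09, from *POL30* (0.82), *PSF3* (0.64), *RAD27* (0.61), *CDC9* (0.51) and *CDC45* (0.50) to *CDC6* (-0.65), *MCM4* (-0.43), *MCM10* (-0.41), *RNR3* (-0.39) and *MCM7* (-0.36). Over 4 and 6 h alone 1 was lower. The mean hides larger differences at 4 h, when 2 members were higher and 2 lower, between -1.77 and 1.17. Of all 6496 genes, 266 were higher and 358 lower at 4 h. At 12 h 0 were higher (2.31%), 1 under quantile normalization, and 0 lower (5.37%). *RNR4* (0.98), *RFC2* (0.78), *ORC5* (0.75), *SLD2* (0.75) and *PSF3* (0.75) stood against *ORC3* (-0.73), *MCM10* (-0.70), *ORC1* (-0.63), *CDC6* (-0.62) and *RNR1* (-0.46). At 2 h *kar4*Δ/Δ was the higher genotype for 51 of 55 members, by a median of 0.41, and at 6 h for 23 of 55. The median difference of all genes was 0.003 at 2 h and -0.004 at 6 h, and their shares above 0 were not counted.

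In the dual strains the genotypes crossed over time. At 0 h *kar4*Δ/Δ had the low start seen with Pzev-*IME1*, with 23 members lower than the reference (11.1%), 0 higher (2.94%) and a median of -0.79. *TOF1* (-2.18), *POL1* (-2.08), *CSM3* (-1.61), *MCM2* (-1.54) and *RNR1* (-1.50) were lowest and *DPB11* (0.55), *ORC4* (0.21), *CDC6* (0.12), *MCM4* (0.11) and *SLD5* (0.07) highest. From 0 to 2 h 36 members were higher within that strain (16.8%), led by *POL30* (3.06), *POL1* (2.67), *MCM6* (2.55), *TOF1* (2.48) and *RNR1* (2.43). At 0 h *kar4*Δ/Δ minus wild type had a median of -1.15, with 30 members lower (5.99% of all genes), which rests on the wild type dual column at 0 h that already held *IME2* at 4.36. At 2 h *kar4*Δ/Δ was below wild type for all but 3 members, by a median of -0.75, and at least 2-fold for 21 (6.31%). The median difference of all genes at 2 h was -0.01, and their share below 0 was not counted. These genotype counts at 0 and 2 h were not repeated under another scaling. The SD over all genes at 2 h was 1.22 in the dual wild type and 1.03 in the dual *kar4*Δ/Δ, so the counts may depend on the scaling. At 4 h the median difference was -0.05, at 6 h 0.07, at 8 h 0.54 and at 12 h 0.71. The 8 h column of *kar4*Δ/Δ was the highest from 2 h on for 40 of 55 members, and that of wild type for 1, with no count over all genes. Of the early meiotic genes in these columns, *HOP1* was highest at 4 h in wild type (6.23) and at 8 h in *kar4*Δ/Δ (5.58, with 5.57 at 12 h). *REC8* (5.71 and 4.99) and *DMC1* (5.86 and 4.79) were highest at the same times as *HOP1*. *IME2* was highest at 8 h in both (7.21 and 5.71), and *SPO11* at 6 h in wild type (5.54) and at 12 h in *kar4*Δ/Δ (4.48). The part of these genes' timing, and of the early state of the wild type culture at 0 h, in the replication gene difference was not tested.

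The 2 to 6 h mean averages over this crossing. It gave a median of -0.27, with 0 members higher (7.1%) and 2 lower (6.54%), 0 under quantile normalization. These 2 were *ORC1* (-1.36) and *RNR1* (-1.11), followed by *ORC3* (-0.94), *CDC6* (-0.91) and *DPB4* (-0.91), with *ORC5* (0.44), *RAD27* (0.44), *MCM7* (0.38), *CTF4* (0.32) and *ORC4* (0.31) at the other end. At 12 h 20 members, or 36.4%, were higher in *kar4*Δ/Δ (17.9% of all genes), 9 under quantile normalization, and 8, or 14.5%, were lower (25.2%), 1 under quantile normalization. *RFC5* (2.52), the fork gene *CTF4* (2.20), *CDC9* (2.12), *POL2* (2.11) and *SLD2* (1.91) were the most retained. *ORC3* (-3.62), *ORC1* (-2.48), *SLD5* (-2.04), *MCM10* (-2.00) and *PSF3* (-1.45), which had gone up late in wild type, were lowest.

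**Figure D3:**
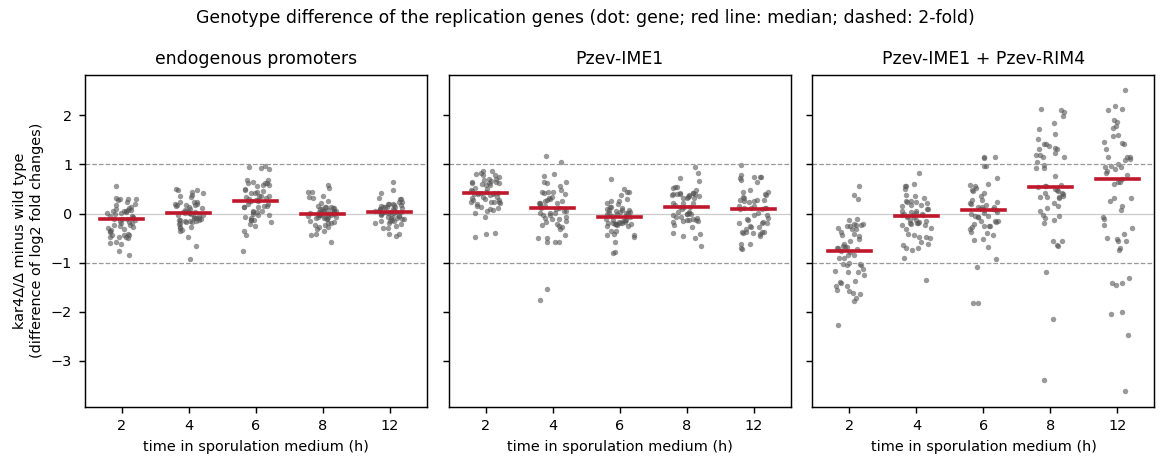
Difference of log2 fold changes, *kar4*Δ/Δ minus wild type, of each of the 55 genes (dots) at 2 to 12 h in sporulation medium, one panel per promoter background; red lines are medians and dashed lines mark 2-fold. With both Pzev promoters the median moves from -0.75 at 2 h to 0.71 at 12 h, while in the other panels the medians lie between -0.11 and 0.41.

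Among the origin recognition genes, which mark replication origins throughout the cycle, *ORC2*, *ORC4*, *ORC5* and *ORC6* stayed within 2-fold of the reference in all 36 conditions. *CDC6*, whose product loads the helicase, was at 0.40, 0.69, 0.46, -0.15 and 0.49 at 2, 4, 6, 8 and 12 h in wild type with endogenous promoters. In wild type Pzev-*IME1* it was at 0.56, 0.98, 1.31, 1.15 and 1.58, and in the dual wild type at 1.79, 1.80, 1.44, 1.09 and 0.25. So *CDC6* was still climbing in the first of the Pzev strains at the time it was back near the reference in the second. Its *kar4*Δ/Δ values were 0.64, -0.56, 0.83, 0.73 and 0.97 with Pzev-*IME1* and at 0.79, 1.16, 0.35, 1.42 and 1.56 in the dual strain, and at 0.41, 0.54, 0.48, 0.44 and 0.44 with endogenous promoters. *ORC1* and *ORC3*, the members that ended highest, were at 1.11, 1.72, 2.20, 3.04 and 3.67 and at 0.76, 1.13, 2.23, 3.67 and 4.58 in the dual wild type, an unbroken climb.

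The 6 *MCM* genes encode the ring of the replicative helicase, yet their values were not alike. In the dual wild type at 2, 4, 6, 8 and 12 h, *MCM2* was at 1.60, 1.31, 0.86, 0.52 and -0.07, *MCM6* at 2.02, 1.94, 1.52, 1.07 and 0.18, and *MCM7* at 1.58, 0.99, 0.23, -0.00 and 0.31. *MCM3* was at 0.57, 0.29, -0.32, -0.86 and -2.01, and *MCM5* at 1.15, 1.16, 1.03, 1.60 and 1.93. *MCM4* moved least, between 0.11 and 0.63. In wild type Pzev-*IME1*, *MCM6* was highest and *MCM3* lowest of the 6 from 2 h on, and all 6 were higher at 8 h than at 2 h. *MCM6* was at 0.88, 1.11, 1.20, 1.40 and 1.44 and *MCM7* at 0.80, 0.99, 1.05, 1.29 and 0.95. There *MCM2* went from 0.10 at 2 h to 1.05 at 12 h, *MCM5* from -0.00 to 1.01, *MCM4* from 0.26 to 0.48 and *MCM3* from -0.02 to 0.16. At 8 h *MCM2*, *MCM4* and *MCM3* had been higher, at 1.07, 0.63 and 0.47. With Pzev-*IME1* in *kar4*Δ/Δ, *MCM6* was again highest, between 0.86 and 1.28 from 2 h on, and *MCM3* lay between -0.49 and 0.01, the lowest of the 6 except at 2 h, when *MCM4* was at -0.21. In the *kar4*Δ/Δ dual strain *MCM6* lay between 1.26 and 1.92, *MCM7* between 0.38 and 1.59, *MCM2* between 0.57 and 1.45, *MCM5* between 0.36 and 1.41, *MCM4* between 0.30 and 0.58 and *MCM3* between -0.23 and 0.53. With endogenous promoters all 6 lay between -0.90 and 0.47 from 2 h on in wild type, each with its lowest value at 6 h, and *MCM3* and *MCM5* were below 0 at each of these times in *kar4*Δ/Δ.

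In the 2 to 6 h mean of the dual wild type 16.9% of all genes were at least 2-fold higher. Of the 10 firing factors and GINS genes, *CDC45*, *DBF4*, *SLD2*, *PSF1* and *SLD5* were. The others, *SLD3*, *DPB11*, *MCM10*, *PSF2* and *PSF3*, were not. *DBF4* and *SLD5* were at least 2-fold higher at every time from 2 h on, *SLD5* ending at its highest. *DBF4* was at 2.42, 2.47, 2.29, 2.32 and 1.77 at 2, 4, 6, 8 and 12 h. *SLD3*, which helps Cdc45p to bind at origins, stayed between -0.49 and 0.79 in all conditions. The GINS genes, whose products join the helicase, parted late in the dual wild type, with *PSF1* at 0.05, *PSF2* at 1.01, *PSF3* at 1.85 and *SLD5* at 2.84 at 12 h.

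Nearly all polymerase genes were high early in the dual wild type. There 10 of 11 were at least 2-fold higher over 2 to 6 h (16.9% of all genes), with a group median of 1.32, and *POL3*, of polymerase δ, was the other one at 0.85. *POL1*, which starts each new strand together with primase, was at -2.95 at 0 h in wild type Pzev-*IME1* and at 0.05, 0.29, 0.50, 1.00 and 1.12 from 2 to 12 h. In the dual wild type *POL1* was at 0.66 at 0 h and then at 2.22, 1.92, 1.22, 0.83 and 0.17. Its *kar4*Δ/Δ values went from -3.64 at 0 h to 0.44, 0.43, 0.28, 0.94 and 0.93 with Pzev-*IME1*, and from -2.08 to 0.59, 1.69, 1.34, 2.06 and 1.59 in the dual strain. With endogenous promoters *POL1* was at -0.26, -0.51, -0.78, 0.03 and -0.02 in wild type and between -0.85 and -0.48 from 2 h on in *kar4*Δ/Δ. Its partners in the same enzyme, *POL12*, *PRI1* and *PRI2*, were at 2.29, 1.24 and 1.75 at 2 h in the dual wild type. The polymerase ε genes *POL2*, *DPB2*, *DPB3* and *DPB4* were at 2.59, 1.87, 1.13 and 1.07, and the polymerase δ genes *POL3*, *POL31* and *POL32* at 1.10, 1.63 and 1.74.

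*POL30* encodes PCNA, the clamp that holds polymerases on DNA, and had the highest value of all members in the dual wild type at 2 h. Its values at 0, 2, 4, 6, 8 and 12 h were 0.78, 3.38, 2.59, 1.74, 1.18 and 0.92 in that strain and -2.70, 1.38, 1.28, 1.41, 1.77 and 1.70 in wild type Pzev-*IME1*. The *kar4*Δ/Δ values were -2.76, 2.24, 2.45, 1.84, 2.42 and 2.34 with Pzev-*IME1* and -1.46, 1.60, 2.58, 1.81, 2.90 and 2.07 in the dual strain. With endogenous promoters *POL30* stayed from 2 h on between -0.27 and 0.73 in wild type and between 0.29 and 0.92 in *kar4*Δ/Δ. The clamp loader did not follow the clamp as a whole: in the dual wild type at 2 h *RFC5*, *RFC4* and *RFC3* were at 1.95, 1.69 and 1.08 but *RFC1* and *RFC2* at 0.20 and 0.10. All 3 RPA genes were higher there, *RFA1* at 2.40, *RFA2* at 1.62 and *RFA3* at 1.74, as were *CDC9* at 1.47 and *RAD27* at 1.38, which finish the lagging strand. The fork protection genes *TOF1*, *CSM3*, *MRC1* and *CTF4*, which keep helicase and polymerase together, were at 1.56, 1.79, 1.84 and 1.42. By 12 h *CSM3* was at 1.33 and its partner *TOF1* at -0.06. Under quantile normalization *CSM3* went from 1.38 at 2 h to 0.50 at 12 h, and *TOF1* from 1.16 to -0.02.

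The genes of ribonucleotide reductase did not move together. *RNR1* (chromosome V, 298950 to 301616) encodes the main large subunit. With endogenous promoters it was at -0.37, -1.68, -2.04, -1.66 and -1.60 at 2, 4, 6, 8 and 12 h in wild type and at -1.12, -1.48, -1.42, -1.23 and -1.40 in *kar4*Δ/Δ. No other member was more than 2-fold below the reference in this background. With Pzev-*IME1* it was at -3.03 at 0 h and then at 0.98, 0.57, 0.73, 1.44 and 1.34 in wild type, and at -4.46 and then 0.57, 1.62, -0.06, 0.77 and 0.88 in *kar4*Δ/Δ. In the dual strains *RNR1* was at 0.80 and then 3.20, 2.45, 1.52, 1.57 and 1.78 in wild type, and at -1.50 and then 0.93, 1.75, 1.15, 2.11 and 1.26 in *kar4*Δ/Δ. The 0 h value of the endogenous *kar4*Δ/Δ column, 1.13, belongs to the column that the *KAR4* level does not bear out.

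*RNR3* (chromosome IX, 238099 to 240708), a large subunit gene known for its induction by DNA damage, went the other way. In wild type Pzev-*IME1* it was at -0.33 at 0 h and then at -1.48, -2.05, -3.07, -2.93 and -2.23, and in *kar4*Δ/Δ at -0.47 and then -0.70, -3.82, -3.26, -2.94 and -2.22. In the dual strains it was at -1.44 and then -1.79, -1.49, -1.49, -0.88 and 0.16 in wild type, and at -0.79 and then -2.00, -2.11, -2.17, -1.44 and -0.07 in *kar4*Δ/Δ. With endogenous promoters *RNR3* stayed from 2 h on between -0.35 and 0.22 in wild type and between -0.12 and 0.05 in *kar4*Δ/Δ. *RNR1* and *RNR3* are paralogs, and reads that match both could have been split between them, so their opposite courses are uncertain to that extent.

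The small subunit genes parted as well. *RNR2* (chromosome X, 392404 to 393603) was at 0.70, 1.19, 1.42, 1.24 and 1.14 from 2 to 12 h in wild type with endogenous promoters and between 0.08 and 0.80 in *kar4*Δ/Δ. It was between 0.18 and 0.59 in wild type Pzev-*IME1*, between 0.08 and 1.06 in *kar4*Δ/Δ Pzev-*IME1*, between 0.25 and 1.42 in the dual wild type and between 0.96 and 1.42 in the dual *kar4*Δ/Δ. *RNR4* (chromosome VII, 855264 to 856301), whose product pairs with Rnr2p in the small subunit, was at 0.48, 0.69, 0.70, 0.35 and 0.00 in wild type with endogenous promoters. It was at -1.05, -1.84, -2.30, -2.39 and -2.65 in wild type Pzev-*IME1* and at -2.10, -1.87, -1.75, -1.63 and -1.58 in the dual wild type. In *kar4*Δ/Δ it was between -1.99 and -0.35 with Pzev-*IME1*, between -1.93 and -1.42 in the dual strain and between -0.02 and 0.32 with endogenous promoters. *RNR4* was below 0 in all 24 Pzev conditions. The remaining supply genes followed the polymerases early, with *DUT1*, which destroys dUTP, at 1.33 and *CDC21* at 2.16 in the dual wild type at 2 h.

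**Figure D4:**
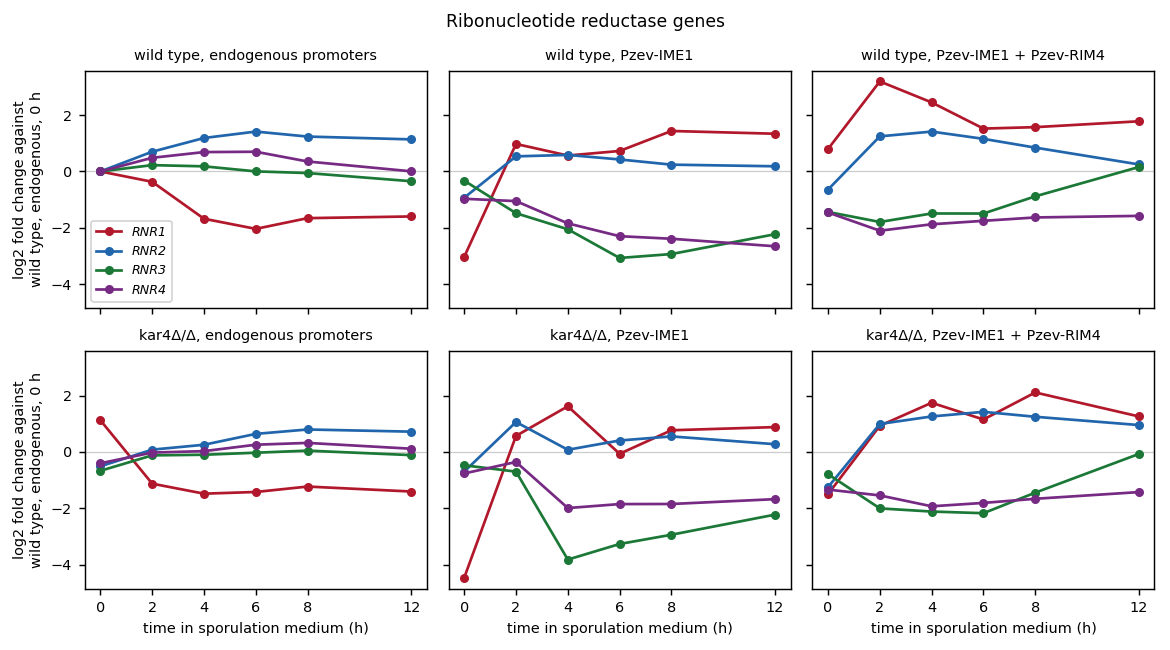
Log2 fold changes of *RNR1*, *RNR2*, *RNR3* and *RNR4* against time in sporulation medium (h), wild type above and *kar4*Δ/Δ below, one column per promoter background. From 2 h on *RNR1* lies lowest with endogenous promoters (-2.04 at 6 h in wild type) and highest in the dual wild type (3.20 at 2 h), while *RNR3* and *RNR4* are the low lines from 2 h on in every Pzev panel.

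Of the other genes that set nucleotide pools, *HUG1* was the one with values like those of *RNR3* and *RNR4*. Its product inhibits the small subunit and its promoter is repressed through Rfx1p. *HUG1* was at -2.35, -3.84, -3.68, -4.04 and -2.60 from 2 to 12 h in wild type Pzev-*IME1*, and its difference from endogenous promoters over 2 to 6 h was -3.52. *RFX1* itself was at -0.13 in that mean and at 1.13 in the dual wild type, where *HUG1* was at -2.31. The part of Rfx1p in these values was not tested. The 12 genes of this list had a median of 0.82 in the 2 to 6 h mean of the dual wild type. There 5 were at least 2-fold higher (16.9% of all genes) and 1 lower (14.9%). *DIF1*, whose product drives import of the small subunit into the nucleus, and *SML1*, an inhibitor of the large subunit, were the highest of the list for Pzev-*IME1* minus endogenous at 1.09 and 0.76, and *WTM1*, whose product anchors the small subunit there, at -0.48 was the next lowest after *HUG1*.

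Related gene lists were followed in the same way. In the 2 to 6 h mean of the dual wild type, where 16.9% of all genes were at least 2-fold higher, 6 of 9 cohesin genes were higher, as were 7 of 15 other replication genes, 4 of 5 S phase kinase genes, 4 of 6 G1/S transcription factors and 3 of 6 chromatin assembly genes. For Pzev-*IME1* minus endogenous in wild type over 2 to 6 h, the ends of the cohesin list were *MCD1* (1.70) and *SCC2* (1.21) above and *RAD61* (-0.11) and *SCC4* (0.27) below. For the other replication genes they were *RNH203* (0.80) and the nuclease gene *EXO1* (0.66), and *TAH11* (-1.08) and *RRM3* (-0.42). *TAH11* encodes Cdt1p, the partner of the Mcm2-7 ring in loading. For the S phase kinase they were the cyclin gene *CLB5* (1.16) and *CDC28* (1.12), and the inhibitor gene *SIC1* (0.05) and *CKS1* (0.43). For the G1/S factors they were *NRM1* (1.35) and *STB1* (0.85), and *MBP1* (-0.36) and *SWI4* (-0.08), and for chromatin assembly *MSI1* (0.83) and *CAC2* (0.69), and *SPT16* (-0.40) and *POB3* (0.09). *MBP1* encodes the DNA-binding subunit of MBF and *NRM1* its corepressor. Unlike most members, *CLB5*, *CLB6*, *SWI4*, *NRM1*, *DIF1* and *EXO1* went on up in the dual wild type, from 3.43, 2.45, 2.37, 1.69, 1.71 and 1.76 at 2 h to 5.23, 6.86, 3.42, 4.15, 4.31 and 4.61 at 12 h.

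The MCB was common before these genes. The sequence ACGCGT, which reads the same on both strands, occurs in the 300 bases before the start codon of 25 of 55 members, or 45.5%, against 3.48% of 6001 protein-coding genes, and 9 members hold more than one. The URS1 core, GCCGCC on either strand, the element at which Ime1p acts with Ume6p, occurs in 4 of 55 (*ORC1*, *MCM4*, *MCM5* and *POL31*), or 7.27%, against 5.2%. No windows of any pair of members overlapped. Shown are the member highest in the 2 to 6 h mean of the dual wild type (*POL30*), 3 members with a repeated MCB, the member that holds an MCB and has low values (*RNR3*), and *MCM5* for the URS1 core. The sequences are from the R64 reference, read 5′ to 3′ on the gene's strand up to the base before the start codon, with the MCB, or the URS1 core in *MCM5*, in capitals.

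POL30 (YBR088C), chrII:425767-426066, minus strand: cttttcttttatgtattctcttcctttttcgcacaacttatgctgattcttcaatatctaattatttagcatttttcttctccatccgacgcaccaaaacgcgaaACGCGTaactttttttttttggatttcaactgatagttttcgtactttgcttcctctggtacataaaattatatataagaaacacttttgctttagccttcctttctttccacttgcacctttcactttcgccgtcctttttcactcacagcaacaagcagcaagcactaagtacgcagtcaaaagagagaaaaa
RFA1 (YAR007C), chrI:158620-158919, minus strand: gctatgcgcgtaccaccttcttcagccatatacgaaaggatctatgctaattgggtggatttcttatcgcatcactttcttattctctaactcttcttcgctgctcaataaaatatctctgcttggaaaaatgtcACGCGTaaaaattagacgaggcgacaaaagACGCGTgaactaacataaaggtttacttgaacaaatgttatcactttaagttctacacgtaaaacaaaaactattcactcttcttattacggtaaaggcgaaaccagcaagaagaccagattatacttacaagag
CDC21 (YOR074C), chrXV:467590-467889, minus strand: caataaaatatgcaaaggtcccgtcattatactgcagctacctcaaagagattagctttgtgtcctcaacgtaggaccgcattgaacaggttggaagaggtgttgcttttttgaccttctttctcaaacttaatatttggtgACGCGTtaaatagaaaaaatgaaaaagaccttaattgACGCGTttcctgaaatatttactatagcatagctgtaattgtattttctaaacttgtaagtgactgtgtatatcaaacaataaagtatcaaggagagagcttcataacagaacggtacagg
POL1 (YNL102W), chrXIV:429787-430086, plus strand: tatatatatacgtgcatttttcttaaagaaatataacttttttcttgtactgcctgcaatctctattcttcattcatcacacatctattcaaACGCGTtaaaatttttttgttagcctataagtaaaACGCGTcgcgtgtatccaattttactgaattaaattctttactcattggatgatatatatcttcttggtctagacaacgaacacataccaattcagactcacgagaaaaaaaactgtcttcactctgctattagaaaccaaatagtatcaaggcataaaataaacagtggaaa
RNR3 (YIL066C), chrIX:240709-241008, minus strand: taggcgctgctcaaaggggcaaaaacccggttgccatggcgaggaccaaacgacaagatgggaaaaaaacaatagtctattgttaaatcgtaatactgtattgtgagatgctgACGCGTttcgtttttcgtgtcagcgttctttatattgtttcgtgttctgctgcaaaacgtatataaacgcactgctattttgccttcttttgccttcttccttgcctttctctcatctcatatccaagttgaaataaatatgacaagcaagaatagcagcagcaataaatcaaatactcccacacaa
MCM5 (YLR274W), chrXII:691255-691554, plus strand: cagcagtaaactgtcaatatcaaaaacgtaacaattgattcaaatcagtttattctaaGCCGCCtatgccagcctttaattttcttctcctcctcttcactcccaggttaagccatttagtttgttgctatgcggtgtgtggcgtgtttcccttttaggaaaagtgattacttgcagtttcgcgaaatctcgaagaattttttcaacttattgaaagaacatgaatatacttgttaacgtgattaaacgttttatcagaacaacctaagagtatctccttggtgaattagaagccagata

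The MCB of *POL30* ends 190 bases before the start codon. The nearer MCB ends 130 bases before the start codon in *RFA1*, 116 in *CDC21* and 168 in *POL1*. None of these windows overlaps another annotated gene. *RNR1* has no MCB in this window, which says only that these letters are not in these 300 bases.

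Members with an MCB had the higher medians in the Pzev strains. In the 2 to 6 h mean of the dual wild type the 25 members with an MCB had a median of 1.45 and the 30 without 0.98, with 19 and 15 at least 2-fold higher. In the dual *kar4*Δ/Δ the medians were 1.27 and 0.52, with 17 and 5 higher, against 32.7% and 9.24% of all genes with and without an MCB. Wild type Pzev-*IME1* had medians of 0.70 with and 0.36 without, and its *kar4*Δ/Δ partner 0.96 and 0.43. With endogenous promoters the groups were nearly level, at 0.10 and 0.04 (wild type), then 0.11 and 0.10 (*kar4*Δ/Δ). The low start was on the same side: at 0 h in wild type Pzev-*IME1* the medians were -1.62 with an MCB and -0.68 without. There 18 and 10 members were at least 2-fold lower, against 16.7% of all genes. Over all genes with and without an MCB the medians at 0 h were -0.58 and 0.01, and their shares past 2-fold were not counted. Over all genes with an MCB window, 208 in number, the dual wild type median was 1.00 and 50.5% were at least 2-fold higher, against 15.6% of the 5672 without. *RNR3* was the exception among members with the motif, at -1.59. For the URS1 core the 4 members with a match had a median of 1.20 and the 51 without 1.26 in the dual wild type.

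**Figure D5:**
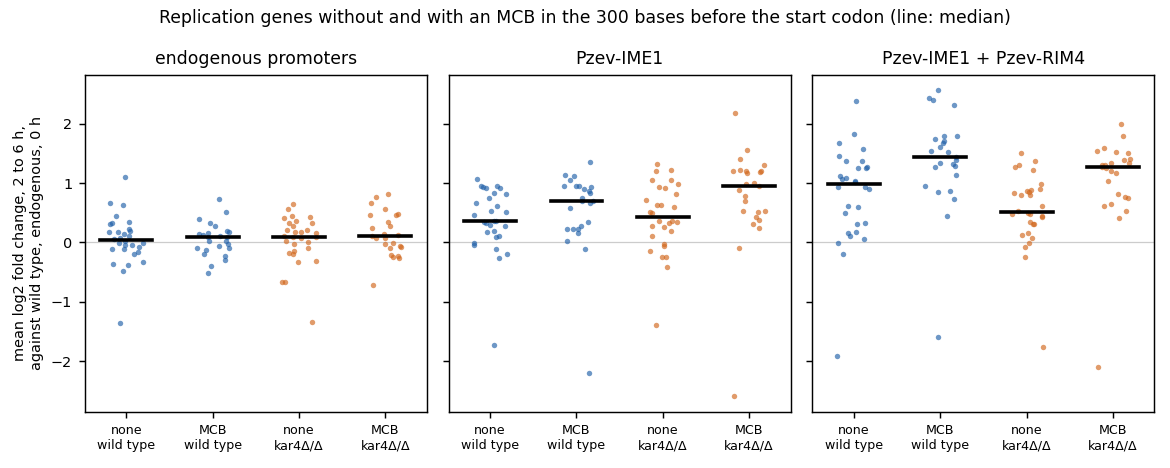
Mean log2 fold change over 2, 4 and 6 h of members without (30) and with (25) an MCB in the 300 bases before the start codon, in wild type (blue) and *kar4*Δ/Δ (orange), one panel per promoter background; each dot is a gene and the black line the median. The lines are level with endogenous promoters, and the MCB group lies higher in the Pzev panels, at 1.45 against 0.98 in the dual wild type, with *RNR3* as the low dot of that group.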

How the data were processed

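The RNA-seq time course held 72 libraries, 2 for each of 36 conditions. Per the study's methods the authors mapped reads with BWA-MEM, to sacCer3 as the submitters' processing notes name the build, obtained counts per gene (htseq-count) and derived fold changes in DESeq2 relative to the 0 h wild type under endogenous promoters, with versions and any shrinkage of fold changes not given in the sources used here. Deposited were these log2 fold changes by the authors for 6660 genes, replicates combined, so depth and replicate spread are unknown. The table also has 16 unnamed columns, which were not used. The 164 genes lacking a value in some column were left out.

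Here the mean of 2, 4 and 6 h and the 12 h value were taken for 10 comparisons, with differences between strains by subtraction, which holds if the fold changes are additive. Members at least 2-fold apart (1 on the log2 scale) were counted. No test was made, since no value per library was used. In each comparison the 5 highest and 5 lowest members were named, and in each of 6 related lists the 2 highest and 2 lowest for wild type Pzev-*IME1* minus endogenous promoters over 2 to 6 h. The members and lists were chosen with earlier results of these data known, and the 0 h states, changes within a strain, times of the highest value, neighbours and the other related genes named were chosen after the values were seen. Promoter windows were the 300 bases before the start codon in the R64 reference, the same assembly as sacCer3, from RefSeq, in which 5986 of the table's identifiers were found. Strand of the counting is not given. Alternatives were quantile normalization, which gives every column the same spread, centring of columns and a mean of 4 and 6 h. The counting was tested on simulated data. The software was pandas 2.3.3 with numpy 2.4.6 under Python 3.11.15, and matplotlib 3.10.9 for plots.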

Additional observations from a re-analysis of the deposited data

How the results depend on the processing

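Centring each column on its median changed 0 of 58 counts of members by over 1.5 times, and a mean of 4 and 6 h changed 4 of 20. Quantile normalization, which gives every column the same spread, changed 27 of 58. Under it, members higher with wild type endogenous promoters were 3 in both windows. In wild type Pzev-*IME1* they were 8 over 2 to 6 h and 14 at 12 h. In the dual wild type they were 17 and 3, with 1 lower at 12 h. For *kar4*Δ/Δ minus wild type, 1 was lower over 2 to 6 h with endogenous promoters, 1 higher at 12 h with Pzev-*IME1*, 0 lower over 2 to 6 h in the dual strains, and 9 higher and 1 lower there at 12 h. For Pzev-*IME1* minus endogenous, 10 were higher over 2 to 6 h and 2 higher and 4 lower at 12 h in wild type, and 7 higher at 12 h in *kar4*Δ/Δ. For dual minus Pzev-*IME1*, wild type had 2 higher over 2 to 6 h and 2 higher and 12 lower at 12 h, and *kar4*Δ/Δ had 0 lower at 12 h. At 0 h, wild type Pzev-*IME1* had 1 higher and 18 lower and the dual wild type 13 higher. From 0 to 2 h, 2 were lower in wild type Pzev-*IME1*, 12 higher in the dual wild type and 0 lower in the dual *kar4*Δ/Δ, and from 2 to 12 h in the dual wild type 2 were higher. The mean of 4 and 6 h gave 15 higher in wild type Pzev-*IME1*, 1 lower for *kar4*Δ/Δ minus wild type with Pzev-*IME1*, 16 higher for Pzev-*IME1* minus endogenous in wild type, and 6 higher for dual minus Pzev-*IME1* in *kar4*Δ/Δ. The scalings of the 0 h states and of changes within a strain were added after the data were seen.

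No paired analysis was possible because the table holds the replicates combined. Leaving out each replicate in turn was not run for the same reason. Counts near the 2-fold size have no error attached, and depth is unknown.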

Other observations

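The 6 h columns stood apart from their neighbours in time in some strains. In the dual *kar4*Δ/Δ strain 41 of 55 replication genes were lower at 6 h than at both 4 h and 8 h, against 32.8% of all genes, and in wild type with endogenous promoters 36 were, against 40.3%. In *kar4*Δ/Δ Pzev-*IME1* it was 31 members, against 22.8% of all genes, and in wild type Pzev-*IME1* 6, against 31.3%. Wild type endogenous *MCM2* was at -0.08, -0.75 and -0.06 at 4, 6 and 8 h. Without replicate values such a step cannot be set against the spread between cultures.

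*RNR3* has the mitochondrial fission gene *FIS1* (YIL065C) as its right-hand neighbour, 599 bases away on the same strand. In the dual wild type *FIS1* was at -1.30 at 2 h, -1.66 at 4 h and 1.59 at 12 h, and in the dual *kar4*Δ/Δ strain at -1.87 at 12 h, where *RNR3* was at -0.07.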
